A study of Saccharomyces cerevisiae with 222 samples.

Results

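The course followed diploid budding yeast of the SK1 background through 6 h in sporulation medium when the step that starts the early meiotic genes was impaired. It consists of the 12 libraries of the rescue experiment that carry the genotype label IME1; UME6(T99N)-3V5-aGFP, 3 each at 0, 2, 4 and 6 h, out of 222 libraries in the series. These cells are called the T99N-nanobody strain. Their libraries were picked by strain and table, and the course itself was chosen with earlier results of these data known. All 5818 gene models were followed, of which 5527 had enough counts to be tested. The comparisons are 2 h, 4 h and 6 h, each against 0 h, and they show how starved cells respond when little of the meiotic programme is expressed.

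The T99N-nanobody strain is MATa/alpha and homozygous for a UME6 allele with the T99N exchange, a 3V5 epitope tag and a nanobody against GFP, and its IME1 is untagged, so the cells hold no GFP for the nanobody to bind. It was set beside the strain labelled IME1; UME6, which has untagged wild-type copies of both genes and whose 12 libraries have the same 4 times in the same table. A further 12 libraries of the activation domain experiment have the same genotype label as the T99N-nanobody strain, but the study's strain list gives those cells a deletion of IME1 and an IME1 transgene with its own promoter at HIS3. All these cultures were grown in rich medium and then overnight in presporulation medium with acetate, and 0 h is the transfer to sporulation medium, which has acetate as well. The study calls its repeats biological replicates, and the labels do not say which libraries shared a culture or whether more than 1 isolate was used. The p-values rest on the spread between libraries of the same strain and time, taken over all strains in the fit.

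Ume6 is a zinc cluster protein that sits on a short promoter element, URS1, and represses early meiotic genes in growing cells together with the Sin3-Rpd3 histone deacetylase. In starved MATa/alpha cells the IME1 gene is switched on, the kinases Rim11 and Rim15 help Ime1 to join Ume6, and the pair activates the same promoters. Rim11 phosphorylates Ume6 near its amino terminus, and the T99N exchange reduces that phosphorylation and the binding of Ime1. Starvation acts on many other genes at the same time: those of ribosome production, amino acid synthesis, the use of poor nitrogen sources, autophagy and stress.

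The T99N exchange, which other strains of the series carry too, is shown as the repair template that made it, beside the reference sequence it replaced. Capitals mark the bases that differ, and positions are counted from the start of the UME6 coding sequence (YDR207C).
Repair template: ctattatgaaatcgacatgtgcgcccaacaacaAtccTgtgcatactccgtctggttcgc
Reference: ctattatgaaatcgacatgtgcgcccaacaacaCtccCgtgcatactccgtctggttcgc
The 60 bases lie at chrIV:867201-867260 on the minus strand of the RefSeq R64 assembly, within the coding exon of UME6. C296A turns codon 99 from ACT to AAT, which is T99N in a protein of 836 residues, and C300T leaves codon 100 unchanged in meaning (P100P). R64 is the S288C genome, whereas the deposited tables use SK1 gene models, so these coordinates belong to R64 only. Gene-level values cannot show the exchange.

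The element that Ume6 binds is shown for 3 early genes. All are among the 8 meiotic prophase genes whose summed level is given below for both strains. The sequences are primers that the study used on these promoters, and the capitals mark the URS1 core, TAGCCGCC.
IME2 promoter primer: ctcaaaTAGCCGCCgtaac
SPO13 promoter primer: gagaaaTAGCCGCCgacaaaaagg
ZIP1 promoter primer: ttctctaaaaattTAGCCGCCgagg
Each matched R64 once without a mismatch: IME2 at chrX:220835-220853 on the minus strand, SPO13 at chrVIII:131944-131967 on the plus strand and ZIP1 at chrIV:1032412-1032436 on the minus strand. The 3 genes lie on the plus strand, and the core lies 543 bases before the start codon of IME2, 90 bases before that of SPO13 and 13 bases before that of ZIP1.

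The 12 libraries of the T99N-nanobody strain hold 4967585 to 10672218 estimated counts each, against 5155393 to 9129366 in IME1; UME6. In the same table, the first replicates of the strain IME1; UME6-3V5 at 0 and 2 h have counts and TPM that match only when the pair is exchanged, and both were left out of the fit, which used 94 of the 96 libraries. Within the T99N-nanobody strain, replicate 3 at 4 h lay away from the other 2 for several nitrogen, amino acid and stress genes, and its values are given where they occur. Levels below are TPM as deposited, which scale each library's counts by transcript length to the same total. Each fold change is a log2 fold change (log2FC) from edgeR, 3 libraries a side, called at an adjusted p below 0.05. Its standard error (SE) was derived from the log2FC and the F statistic of the test. The spread of each gene was estimated over all strains and times in the fit, so SE and p-values do not rest on the compared libraries alone. RNA was measured in whole cultures, so fewer cells of a kind and less RNA per cell cannot be told apart.

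The number of genes that changed was already as large at 2 h as later. At that time 1786 genes were called higher than at 0 h (32.3% of the genes tested) and 1554 lower (28.1%), together 60.4%. At 4 h the counts were 1750 higher (31.7%) and 1604 lower (29%), together 60.7%, and at 6 h they were 1752 higher (31.7%) and 1653 lower (29.9%), together 61.6%. Over all 4 times 76.3% of the genes varied. The balance of higher and lower genes depended on the scaling. With library totals and no scaling factor it was 1432 higher and 1766 lower at 2 h and 1621 and 1641 at 6 h, and the median log2FC of all genes at 2 h shifted by -0.105. With the strain's own 12 libraries it was 1653 and 1774 at 2 h and 1668 and 1827 at 6 h. The 3 comparisons share their libraries at 0 h. Among the genes called, 645 were at least 2-fold higher and 473 at least 2-fold lower at 2 h, and 679 and 613 at 6 h. Genes changed by at least 8-fold were few, with 24 higher and 12 lower at 2 h, 30 and 35 at 4 h, and 25 and 32 at 6 h.

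Later steps involved fewer genes. At 4 h against 2 h, 21.9% of the genes were called, 542 higher (9.81%) and 666 lower (12%). With library totals and no scaling factor this split was 641 higher and 365 lower, with RLE factors it was 624 and 568 and in DESeq2 602 and 508, and the total was 649 without replicate 3 at 4 h and 697 without replicate 3 at 2 h. At 6 h against 4 h only 4.7% were called (137 higher, 2.48%, and 123 lower, 2.23%), 35 of them at least 2-fold lower and 7 at least 2-fold higher. That last total was 78 without replicate 1 and 159 without replicate 3 at 4 h, and 154, 147 and 85 without replicates 1, 2 and 3 at 6 h. Its split was 103 higher and 151 lower with RLE factors, and 102 and 148 in DESeq2. Counts of list members in these later steps are given below from the main fit only.

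**Figure D1:**
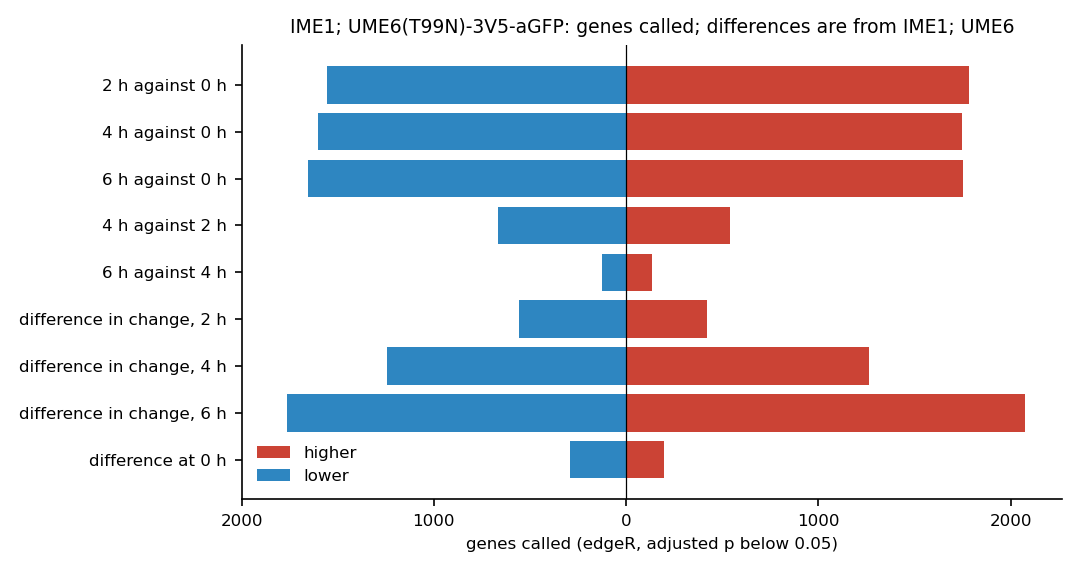
Horizontal bars give the number of genes called higher (red, right) or lower (blue, left) in the T99N-nanobody strain, for each later time against 0 h, for the later steps, and for the differences from IME1; UME6 in the change at each time and in the level at 0 h. The 3 comparisons with 0 h have 3340, 3354 and 3405 genes, and the step between 4 h and 6 h has 260.

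The most uniform change was the fall of the genes that build ribosomes. All 114 ribosome biogenesis genes on the list were tested, and 113 fell at 2 h, 114 at 4 h and 113 at 6 h, against 28.1%, 29% and 29.9% of all genes. Their median log2FC was -1.75, -2.38 and -1.93 at 2, 4 and 6 h, where the median of all genes was 0.05, 0.03 and 0.02. Their summed share of all TPM averaged 1.12% ± 0.173, 0.294% ± 0.0134, 0.208% ± 0.0327 and 0.276% ± 0.0283 over the 4 times (SD, n = 3).

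NSR1 (YGR159C) encodes nucleolin, which acts in the processing of ribosomal RNA. It had 530, 397 and 768 TPM at 0 h, 70.8, 33.0 and 43.4 TPM at 2 h, 53.1, 18.4 and 14.0 TPM at 4 h, and 50.9, 31.6 and 20.4 TPM at 6 h. Every later library lay far below every library at 0 h, with a spread of over 3-fold within 4 h. The log2FC at 4 h was -4.29 ± 0.75 (edgeR adjusted p = 1.1e-06), and -5.05 without replicate 1 at 4 h. DBP2, an RNA helicase, had between 14.4 and 53.8 TPM in all 9 later libraries against 526, 384 and 720 TPM at 0 h. NOP1, the methyltransferase of ribosomal RNA known as fibrillarin, had 80.4, 58.3 and 38.9 TPM at 6 h against 496, 411 and 525 TPM at 0 h, and its log2FC at 4 h was -2.92 ± 0.37. TIF6, a factor of the large subunit, moved less: 202, 154 and 162 TPM at 6 h against 387, 299 and 378 TPM at 0 h, a log2FC of -1.03. URA7 (CTP synthase) and MAK16 (a large subunit factor) were also among the genes that fell most, with log2FC of -3.94 and -3.72 at 4 h.

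Genes for the 2 kinds of ribosomal protein behaved differently from each other. Of 69 mitochondrial ribosomal protein genes, 63 fell at 2 h, 62 at 4 h and 58 at 6 h, with medians of -0.83, -0.83 and -0.72. Among all genes, 28.1%, 29% and 29.9% fell. MRPS16 had 145, 133 and 151 TPM at 6 h against 324, 257 and 279 TPM at 0 h. MRP8, which is listed with this group, went the other way at 6 h, with 1098, 1114 and 1261 TPM at 6 h against 768, 672 and 768 TPM at 0 h.

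Cytosolic ribosomal protein genes rose at 2 h and then came back. Of 103 genes, 71 rose and 1 fell at 2 h (median 0.67), 17 rose and 13 fell at 4 h (median 0.12), and 6 rose and 25 fell at 6 h (median -0.15). The shares of all genes at these times were 32.3%, 31.7% and 31.7% higher, and 28.1%, 29% and 29.9% lower. In the step between 2 h and 4 h, 47 of the 103 fell and none rose, where 12% of all genes fell and 9.81% rose. RPS25A had 695, 538 and 611 TPM at 0 h, 2095, 1760 and 1712 TPM at 2 h, 1454, 1444 and 1202 TPM at 4 h, and 1319, 1214 and 1313 TPM at 6 h, and stayed above 0 h throughout (log2FC at 6 h 1.07 ± 0.17). RPL9A instead had 35.1, 26.7 and 28.1 TPM at 6 h against 159, 125 and 165 TPM at 0 h, a log2FC of -2.31 ± 0.24. Many of these genes have a near-identical copy, so the values of single genes are uncertain.

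**Figure D2:**
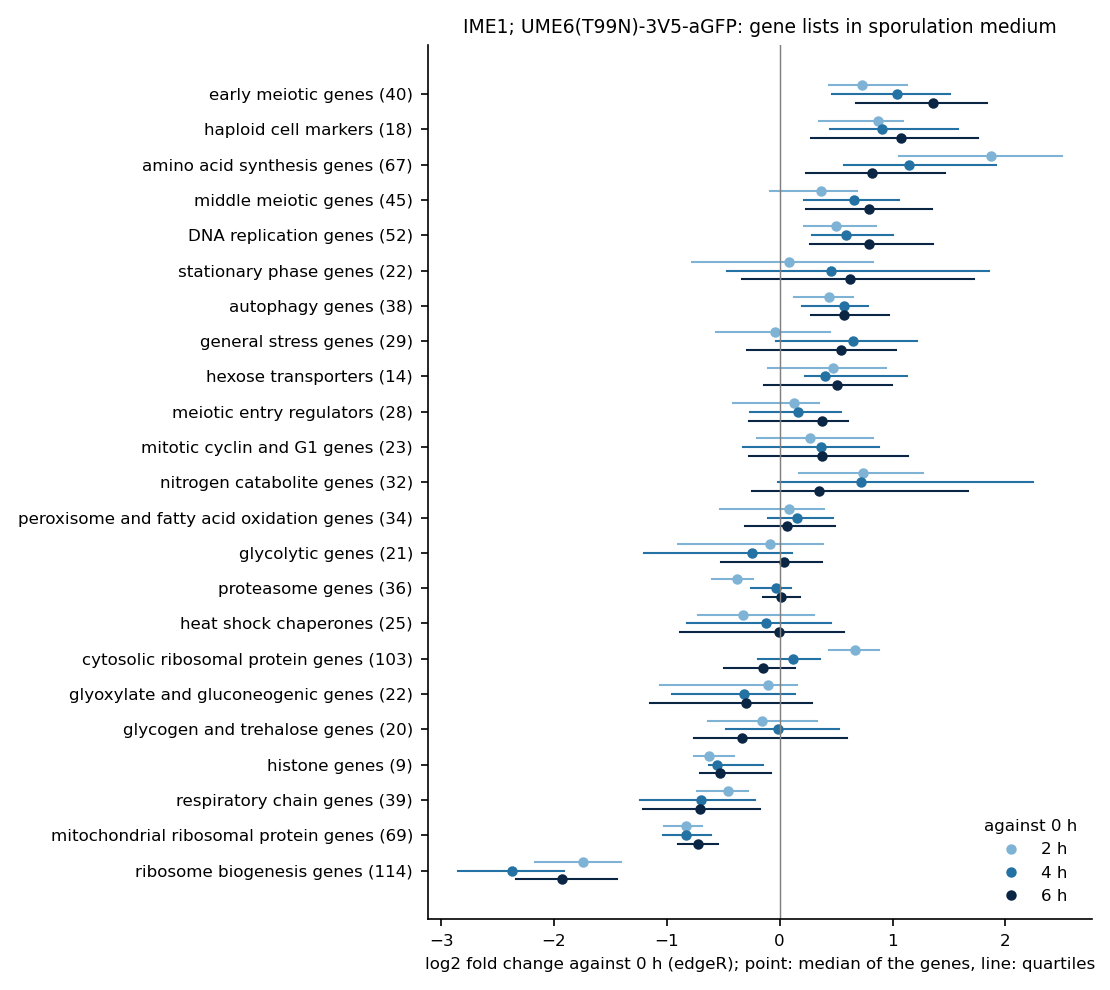
Each row is a gene list with its number of tested genes; points give the median log2FC in the T99N-nanobody strain at 2 h (light), 4 h (middle) and 6 h (dark) against 0 h, and lines join the quartiles. Ribosome biogenesis genes lie lowest at -1.75, -2.38 and -1.93, and amino acid synthesis genes are highest at 2 h at 1.87.

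Amino acid synthesis genes rose most at 2 h and declined after that. Of 67 tested genes, 61 rose and 4 fell at 2 h, 52 rose and 5 fell at 4 h, and 45 rose and 7 fell at 6 h, with medians of 1.87, 1.14 and 0.82. Among all genes, 32.3%, 31.7% and 31.7% rose. In the step between 2 h and 4 h, 41 fell and 5 rose, where 12% and 9.81% of all genes did. Their share of all TPM was 3.18%, 3.22% and 4.13% at 2 h against 1.17%, 1.19% and 1.23% at 0 h, and it averaged 2.21% ± 0.276 at 6 h (SD, n = 3).

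MET17 (YLR303W), the enzyme that takes up sulfide into homocysteine, had 27.6, 29.4 and 33.7 TPM at 0 h, 570, 506 and 796 TPM at 2 h, 370, 342 and 238 TPM at 4 h, and 210, 202 and 168 TPM at 6 h. The 4 times did not overlap. The log2FC was 4.42 ± 0.25 at 2 h and 2.69 ± 0.23 at 6 h (edgeR adjusted p = 5.4e-24 and 4.2e-16). ARG7, LYS1 and ODC2, which act in arginine synthesis, lysine synthesis and mitochondrial transport of dicarboxylates, also had their highest mean at 2 h, with log2FC of 4.05, 3.71 and 3.68 at 2 h and 2.60, 2.18 and 2.11 at 6 h. ARG1, argininosuccinate synthetase, had 3265, 3494 and 4630 TPM at 2 h against 690, 950 and 690 TPM at 0 h. The activator of these genes, GCN4, which is mainly controlled at translation, had 2307, 2047 and 1928 TPM at 2 h against 1742, 1262 and 1603 TPM at 0 h, a log2FC of 0.49 ± 0.16 whose call was lost without replicate 2 at 0 h.

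A few members of the group rose late. LEU1 (YGL009C), the isomerase of leucine synthesis, had 25.7, 35.8 and 27.4 TPM at 0 h, 79.6, 84.2 and 128 TPM at 2 h, 241, 252 and 185 TPM at 4 h, and 683, 1117 and 621 TPM at 6 h, each time above the one before. Its log2FC was 4.79 ± 0.40 at 6 h against 0 h and 1.81 ± 0.35 at 6 h against 4 h (edgeR adjusted p = 2.3e-16 and 0.00097). GLT1, glutamate synthase, had 17.1, 37.3 and 25.3 TPM at 0 h, 66.2, 47.7 and 96.5 TPM at 2 h, 215, 359 and 189 TPM at 4 h, and 214, 321 and 221 TPM at 6 h. SUL1, a sulfate permease that is not on this list, had 171, 219 and 141 TPM at 6 h against 10.3, 12.2 and 13.1 TPM at 0 h. Its log2FC was 3.92 ± 0.22.

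Genes for poor nitrogen sources are repressed by good ones, a control known as nitrogen catabolite repression. Of 32 such genes, 19 rose and 5 fell at 2 h, 19 rose and 4 fell at 4 h, and 13 rose and 8 fell at 6 h, with medians of 0.74, 0.72 and 0.35. Of all genes, 32.3%, 31.7% and 31.7% rose and 28.1%, 29% and 29.9% fell at those times, so the count at 6 h lay nearer to that of all genes. At 6 h against 4 h, 8 of the 32 fell and none rose, where 2.23% of all genes fell. DAL80 (YKR034W), a GATA factor that represses the group, rose most of all named genes at 4 h. It had 3.13, 2.73 and 4.28 TPM at 0 h, 24.8, 36.2 and 35.3 TPM at 2 h, 239, 227 and 139 TPM at 4 h, and 123, 195 and 140 TPM at 6 h. The log2FC was 3.30 ± 0.41, 5.94 ± 0.40 and 5.51 ± 0.40 at 2, 4 and 6 h (edgeR adjusted p = 2.9e-10, 2.1e-20 and 2.9e-19).

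DAL5, DAL4 and DAL1, which act in the use of allantoin, had their highest mean at 4 h, and for each of them replicate 3 lay below the other libraries of that time. DAL5, the allantoate permease, had 31.6, 40.0 and 29.0 TPM at 0 h, 105, 94.2 and 154 TPM at 2 h, 654, 741 and 183 TPM at 4 h, and 128, 310 and 189 TPM at 6 h, the low value at 4 h being replicate 3. DAL4, the allantoin permease, had 81.0, 85.0 and 14.0 TPM at 4 h against 3.87, 4.22 and 4.70 TPM at 0 h. DAL1, allantoinase, had 98.5, 81.4 and 30.0 TPM at 4 h against 6.99, 6.04 and 5.69 TPM at 0 h. DAL3, ureidoglycolate lyase of the same pathway, had no such peak and averaged 94.2 TPM at 4 h against 97.3 TPM at 2 h. The general amino acid permease GAP1 had 379, 523 and 425 TPM at 0 h, 769, 741 and 1075 TPM at 2 h, 2370, 1756 and 1781 TPM at 4 h, and 1160, 1314 and 1026 TPM at 6 h. Its call at 2 h was lost without replicate 1 or 3 at 0 h or replicate 3 at 2 h, and the calls at 4 h and 6 h held. GLN1, glutamine synthetase, fell: 758, 578 and 706 TPM at 2 h against 2106, 1880 and 2415 TPM at 0 h, a log2FC of -1.61 ± 0.29.

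PCK1 and FBP1, which encode enzymes of gluconeogenesis, fell to a small part of their level at 0 h, as did ALD6. PCK1 (YKR097W), phosphoenolpyruvate carboxykinase, had 6130, 8911 and 5207 TPM at 0 h, 290, 344 and 243 TPM at 2 h, 182, 160 and 132 TPM at 4 h, and 114, 130 and 175 TPM at 6 h. No later library came near those at 0 h, and the log2FC was -4.49 ± 0.61, -5.38 ± 0.64 and -5.58 ± 0.65 (edgeR adjusted p = 4.4e-09, 6.1e-11 and 2.5e-11). FBP1, fructose-1,6-bisphosphatase, had 74.9, 67.3 and 91.2 TPM at 6 h against 782, 845 and 634 TPM at 0 h. ALD6, which makes acetate from acetaldehyde, had 1353, 2408 and 822 TPM at 0 h, 222, 235 and 229 TPM at 2 h, 99.2, 51.6 and 39.1 TPM at 4 h, and 52.2, 57.4 and 54.7 TPM at 6 h.

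The glyoxylate and gluconeogenic list, which includes PCK1 and FBP1, moved in both directions. Of its 22 genes, 5 rose and 7 fell at 2 h, and 5 rose and 11 fell at 6 h, with medians of -0.104 and -0.298. The count at 2 h lay near that of all genes, of which 32.3% rose and 28.1% fell. At 6 h 31.7% of all genes rose and 29.9% fell. ACS1, acetyl-CoA synthetase, had 6571, 7314 and 6530 TPM at 6 h against 3480, 5461 and 3122 TPM at 0 h, a log2FC of 0.77 ± 0.26. ADH2, an alcohol dehydrogenase, had 5019, 4478 and 4475 TPM at 6 h against 10297, 8386 and 10809 TPM at 0 h, with 10305 TPM in replicate 3 at 4 h. The formate dehydrogenase FDH1 is on 2 rows of near-identical models, so how its reads divide is uncertain; both fell, and the row with the higher level had 80.0, 68.5 and 126 TPM at 2 h against 851, 807 and 672 TPM at 0 h.

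Few glycolytic genes were called. Of 21, 3 rose and 4 fell at 2 h, 2 rose and 5 fell at 4 h, and 2 rose and 4 fell at 6 h, with medians of -0.08, -0.25 and 0.04. Among all genes, 60.4%, 60.7% and 61.6% were called at these times. Libraries differed widely in this group, with an SD of 0.4 between library medians at 2 h, so genes not called need not be stable. Their share of all TPM averaged 4.47% ± 0.241, 3.40% ± 1.11, 2.99% ± 0.37 and 3.99% ± 0.683 at 0, 2, 4 and 6 h (SD, n = 3 each), and all 3 libraries at 4 h lay below those at 0 h. TDH3 (YGR192C), the main glyceraldehyde phosphate dehydrogenase, had 14637, 13105 and 14604 TPM at 0 h, 10636, 16268 and 9804 TPM at 2 h, 10127, 12281 and 9458 TPM at 4 h, and 11014, 12765 and 13839 TPM at 6 h, and the difference at 6 h had a log2FC of -0.16 ± 0.54 (edgeR adjusted p = 0.81). ADH1, the fermentative alcohol dehydrogenase, did fall, with 639, 966 and 892 TPM at 6 h against 4505, 4796 and 3125 TPM at 0 h. PDC6, a minor pyruvate decarboxylase, rose to 308, 315 and 414 TPM at 6 h, against 46.9, 46.9 and 48.7 TPM at 0 h. Several isozymes of this pathway are close in sequence.

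Of 39 respiratory chain and ATP synthase genes, 17 fell and 2 rose at 2 h, and 24 fell and 3 rose at 6 h, with medians of -0.46 and -0.71, where 28.1% and 29.9% of all genes fell. ATP2, a catalytic subunit of the ATP synthase, had 540, 567 and 561 TPM at 6 h against 1864, 2169 and 1755 TPM at 0 h. CYC7, the cytochrome c isoform of low oxygen, rose instead, with 249, 250 and 249 TPM at 6 h against 59.2, 83.0 and 57.9 TPM at 0 h. HXT5, a hexose transporter of slow-growing cells, had 2305, 1888 and 2077 TPM at 6 h against 667, 428 and 755 TPM at 0 h, and 5 of the 14 hexose transporter and sensor genes tested were called higher at 6 h and 1 lower, where 31.7% and 29.9% of all genes were.

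HES1, HEM13, SHH3 and FLO9 were among the genes with the largest increases. HES1, an oxysterol-binding protein, had 2.49, 3.22 and 4.62 TPM at 0 h, 22.6, 18.8 and 12.5 TPM at 2 h, 156, 86.7 and 122 TPM at 4 h, and 146, 111 and 134 TPM at 6 h, a log2FC of 5.29 ± 0.35 at 6 h. HEM13, a heme synthesis enzyme that is induced at low oxygen, had 690, 637 and 566 TPM at 6 h against 46.0, 44.6 and 54.2 TPM at 0 h. SHH3, a paralogue of a succinate dehydrogenase subunit, had 258, 194 and 244 TPM at 6 h against 10.8, 9.50 and 9.04 TPM at 0 h and rose at every step. FLO9, a flocculin from a family of near-identical genes, is on more than 1 row, and only the model SK1_01T00840.1 is given. That model had 442, 644 and 579 TPM at 2 h against 16.9, 27.3 and 22.9 TPM at 0 h. Its log2FC was the largest among the named genes at 2 h (4.69 ± 0.20). CWP1, a cell wall mannoprotein, and ENB1, an iron siderophore transporter, fell late: CWP1 had 58.7, 69.4 and 85.9 TPM at 6 h against 1025, 1168 and 1040 TPM at 2 h, and ENB1 had 19.5, 15.5 and 17.4 TPM at 6 h against 200, 221 and 261 TPM at 2 h.

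**Figure D3:**
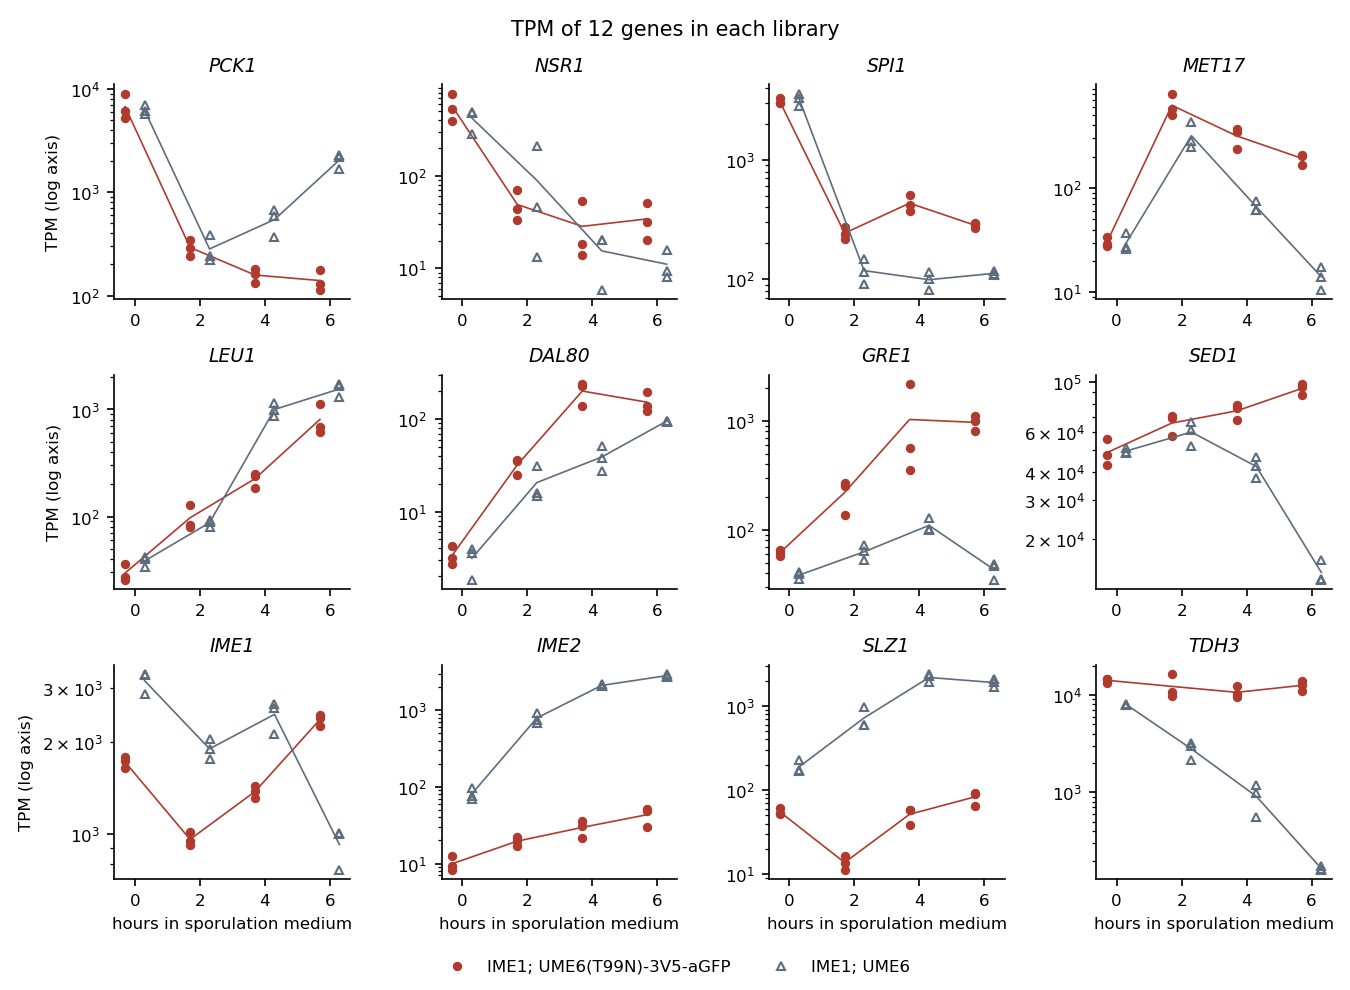
TPM of 12 genes in every library (points, log axis) against hours in sporulation medium, with lines through the means of 3 libraries, for the T99N-nanobody strain (filled circles) and IME1; UME6 (open triangles). PCK1 falls to between 114 and 175 TPM at 6 h in the T99N-nanobody strain, and IME2 stays at or below 51.7 TPM there.

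Most general stress genes moved upward between 2 h and 4 h. Of 29, 9 rose and 8 fell at 2 h, a count near that of all genes (32.3% and 28.1%), 17 rose and 4 fell at 4 h, and 15 rose and 6 fell at 6 h, and in the step between 2 h and 4 h 20 rose and 1 fell, where 9.81% and 12% of all genes did. GRE1 (YPL223C), a hydrophilin induced by stress, had 60.7, 57.8 and 65.7 TPM at 0 h, 252, 270 and 136 TPM at 2 h, 357, 566 and 2156 TPM at 4 h, and 985, 805 and 1107 TPM at 6 h. Replicate 3 supplied the high value at 4 h, and the log2FC of 4.12 ± 0.42 at that time was 2.96 without it, while at 6 h it was 3.98 ± 0.41. DDR2, a gene of the multistress response, had 8057, 9990 and 8289 TPM at 6 h against 4708, 4329 and 4438 TPM at 0 h. SPI1, a wall protein induced by weak acid, fell at once: 272, 219 and 239 TPM at 2 h against 3309, 3030 and 3005 TPM at 0 h, a log2FC of -3.64 ± 0.28. MSN4, a transcription factor of the stress response, had 114, 111 and 108 TPM at 2 h against 26.5, 28.2 and 42.8 TPM at 0 h.

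Heat shock chaperones moved in both directions. Of 25, 5 rose and 11 fell at 2 h, where 32.3% and 28.1% of all genes did. At 6 h 9 rose and 10 fell, where 31.7% and 29.9% of all genes did. HSP26, a small heat shock protein, had 29.5, 50.6 and 51.2 TPM at 6 h against 897, 406 and 790 TPM at 0 h. HSP12, a membrane-protecting stress protein, had 7008, 5116 and 5439 TPM at 6 h against 1507, 1408 and 1772 TPM at 0 h. SSA3, a stress-induced HSP70, had 767, 923 and 1058 TPM at 6 h against 216, 232 and 280 TPM at 0 h.

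Genes known from stationary phase and quiescence took a growing share of the transcripts. The group made up 5.58%, 5.93% and 6.74% of all TPM at 0 h, 7.16%, 8.13% and 8.04% at 2 h, 8.84%, 10.4% and 11.1% at 4 h, and 11.7%, 12.5% and 12.3% at 6 h. Most of that share was SED1 (YDR077W), a wall glycoprotein, with 87910, 97785 and 95410 TPM at 6 h against 42686, 47385 and 55542 TPM at 0 h. Its log2FC was 0.97 ± 0.21 at 6 h (edgeR adjusted p = 4.2e-05), and its smaller change at 2 h lost the call in several alternatives. SIP18, a desiccation hydrophilin, had 12397, 11287 and 10584 TPM at 6 h against 1957, 2049 and 1723 TPM at 0 h. RGI1, a respiratory growth gene, fell to 20.9, 29.6 and 38.9 TPM at 6 h, against 468, 388 and 281 TPM at 0 h. By count, 13 of the 22 genes rose and 5 fell at 6 h, where 31.7% and 29.9% of all genes did.

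Autophagy genes rose early and stayed up. Of 38, 23 rose and 6 fell at 2 h, 26 rose and 3 fell at 4 h, and 28 rose and 2 fell at 6 h, with medians of 0.43, 0.57 and 0.57. Among all genes, 32.3%, 31.7% and 31.7% rose. ATG2, which feeds lipid to the growing autophagosome, had 26.1, 25.9 and 30.7 TPM at 6 h against 6.99, 8.82 and 9.44 TPM at 0 h. ATG41, a regulator of autophagy, had 69.9, 57.0 and 86.3 TPM at 0 h, 800, 595 and 788 TPM at 2 h, 293, 175 and 194 TPM at 4 h, and 136, 96.4 and 123 TPM at 6 h. The vacuolar protease PRB1 had 9149, 9322 and 8664 TPM at 6 h against 4256, 4596 and 4807 TPM at 0 h, and its log2FC was 0.14 ± 0.18 at 2 h and 1.02 ± 0.18 at 4 h. Proteasome genes dipped and returned: 21 of 36 fell at 2 h, and 24 rose and none fell at 4 h against 2 h. Among all genes, 28.1% fell at 2 h, and 9.81% rose and 12% fell at 4 h against 2 h.

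**Figure D4:**
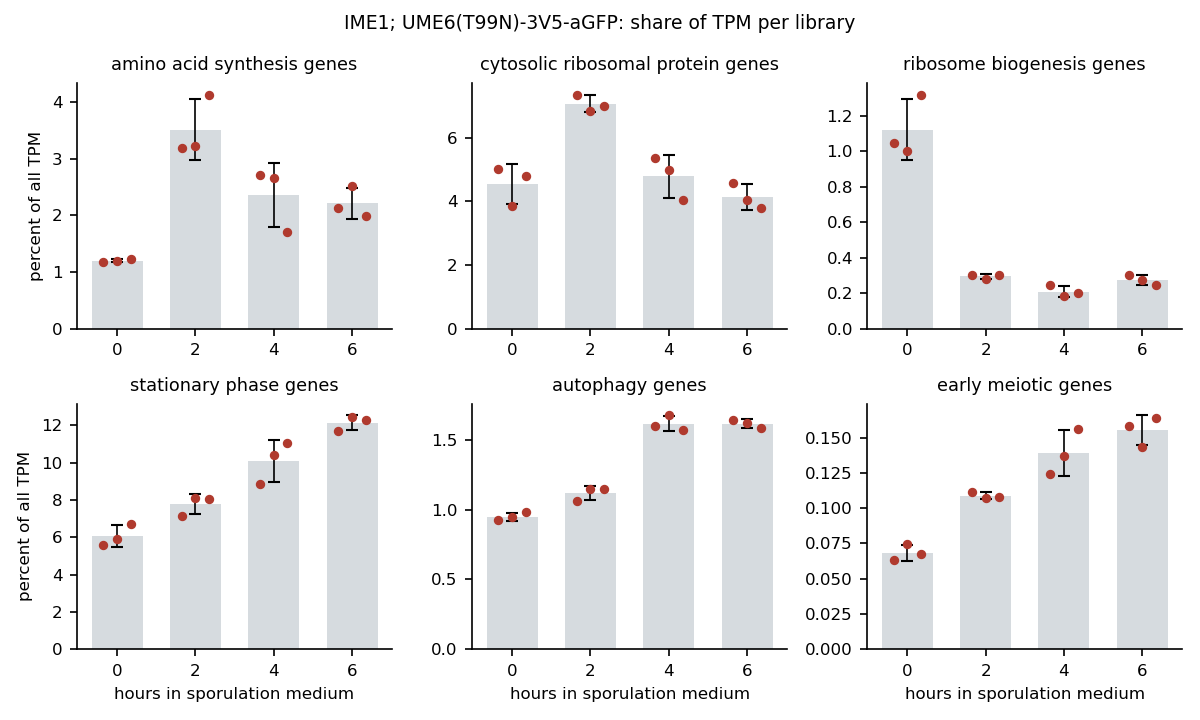
Summed share of all TPM (percent, y axis) of 6 gene groups in each library of the T99N-nanobody strain (points) by hours in sporulation medium, with bars for the mean of 3 libraries and error bars for the SD. The ribosome biogenesis share is 0.276% at 6 h against 1.12% at 0 h, and that of stationary phase genes is 12.2% at 6 h against 6.08% at 0 h.

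Shares of TPM were compared between each later time and 0 h for all 23 groups, 69 tests in all. With 3 libraries a side the exact two-sided permutation test cannot give a p below 0.1, and adjusted values ran from 0.138 to 0.9, so none could pass. By position, 7 groups lay wholly above and 9 wholly below their 0 h libraries at 2 h, 11 and 6 at 4 h, and 10 and 7 at 6 h. Those are the groups with the smallest p of 0.1 in the permutation test, so position adds nothing to it. The size of a shift could depend on the measure. At 4 h the heat shock chaperones had 2.18 times their 0 h share in TPM and 1.19 times in estimated counts. The list medians that lay within 0.1 of 0 for the stationary phase genes at 2 h, the glycogen and trehalose genes at 4 h, the proteasome genes at 4 h and 6 h, the peroxisome genes at 2 h and the heat shock chaperones at 6 h changed sign under another scaling of the libraries and carry no direction.

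Most genes of DNA replication rose, while no histone gene was called higher. Of 52 replication genes, 31 rose and 1 fell at 2 h, 36 rose and 5 fell at 4 h, and 39 rose and 4 fell at 6 h, with medians of 0.50, 0.59 and 0.79. Among all genes, 32.3%, 31.7% and 31.7% rose at those times. POL30, the sliding clamp PCNA, had 12.1, 15.3 and 13.1 TPM at 0 h, 41.1, 23.0 and 30.2 TPM at 2 h, 56.5, 57.9 and 63.2 TPM at 4 h, and 105, 70.5 and 74.5 TPM at 6 h. POL1, the catalytic subunit of polymerase alpha, had 21.2, 19.0 and 21.6 TPM at 6 h against 2.92, 4.93 and 4.30 TPM at 0 h. Among 9 histone genes none rose, and 4, 3 and 5 fell at 2, 4 and 6 h, where 28.1%, 29% and 29.9% of all genes fell. The histone count at 4 h lay near that share. HTA1, a histone H2A gene, had 746, 464 and 472 TPM at 6 h against 1552, 797 and 1072 TPM at 0 h. CLN3, the first G1 cyclin and a repressor of IME1, had 39.3, 42.5 and 37.4 TPM at 6 h against 85.5, 79.2 and 93.2 TPM at 0 h. Histone gene pairs are near-identical in coding sequence.

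IME1 (YJR094C), the inducer of meiosis, was expressed throughout. It had 1636, 1782 and 1731 TPM at 0 h, 1012, 949 and 922 TPM at 2 h, 1310, 1385 and 1432 TPM at 4 h, and 2396, 2257 and 2435 TPM at 6 h. The 4 times did not overlap, and the log2FC was -0.79 ± 0.14 at 2 h and 0.47 ± 0.14 at 6 h (edgeR adjusted p = 1.5e-06 and 0.0024). UME6 had 31.5, 49.1 and 47.2 TPM at 0 h, 36.4, 49.8 and 46.7 TPM at 2 h, 58.7, 73.1 and 73.8 TPM at 4 h, and 47.3, 60.8 and 56.2 TPM at 6 h, and its call at 6 h was lost without replicate 1 at 0 h or replicate 2 at 6 h.

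Of 28 regulators of meiotic entry, 9 rose and 8 fell at 2 h, and 15 rose and 7 fell at 6 h. The count at 2 h lay near that of all genes (32.3% and 28.1%), and at 6 h 31.7% of all genes rose and 29.9% fell. IME2 (YJL106W), the kinase that follows IME1 and is a target of Ume6, had 9.21, 12.4 and 8.31 TPM at 0 h, 22.0, 17.2 and 19.7 TPM at 2 h, 31.0, 21.7 and 36.3 TPM at 4 h, and 48.7, 30.0 and 51.7 TPM at 6 h, a log2FC of 2.13 ± 0.28 at 6 h (edgeR adjusted p = 8.2e-10). RIM4, a translational repressor of meiosis, had 822, 819 and 911 TPM at 6 h against 202, 326 and 252 TPM at 0 h. RME1, a repressor of IME1 in haploid cells, had 25.8, 28.6 and 29.1 TPM at 6 h against 3.94, 4.05 and 6.00 TPM at 0 h. PHD1, a transcription factor of filamentous growth, fell to 44.4, 53.9 and 52.9 TPM at 6 h, against 383, 398 and 390 TPM at 0 h. SLZ1, a subunit of the RNA methyltransferase complex of meiosis, had 52.0, 53.0 and 60.9 TPM at 0 h, 13.4, 11.3 and 16.6 TPM at 2 h, 38.6, 57.6 and 58.3 TPM at 4 h, and 90.9, 64.4 and 93.3 TPM at 6 h. Its small rise at 6 h lost the call without replicate 1 or 3 at 6 h or replicate 2 at 0 h. The kinase RIM11 was called at 2 h only (108, 85.5 and 81.0 TPM against 144, 136 and 111 TPM at 0 h).

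Most early meiotic genes rose in the T99N-nanobody strain as well, to a summed level below that in IME1; UME6. Of 40 genes, 21 rose and 1 fell at 2 h, 26 rose and 2 fell at 4 h, and 30 rose and 2 fell at 6 h, with medians of 0.73, 1.04 and 1.36. Among all genes, 32.3%, 31.7% and 31.7% rose. Their summed share of TPM averaged 0.0682%, 0.109%, 0.139% and 0.155% at 0, 2, 4 and 6 h, against 0.150%, 1.09%, 2.65% and 1.43% in IME1; UME6. RIM4 alone made up 0.026%, 0.0558%, 0.0788% and 0.0851% of all TPM in the T99N-nanobody strain at these times, the largest part of the group's share from 2 h on and most of its rise. The other members summed to 0.0422%, 0.0531%, 0.0605% and 0.0704% there, against 0.084%, 0.786%, 2.12% and 1.15% in IME1; UME6. MND1, an accessory factor of meiotic strand exchange, had 31.4, 18.1 and 16.6 TPM at 6 h against 1.63, 3.28 and 1.95 TPM at 0 h. ZIP1, the central protein of the synaptonemal complex, had 12.8, 11.3 and 15.6 TPM at 6 h against 4.22, 4.49 and 6.10 TPM at 0 h. SAE3, a partner of Dmc1, had 3.59, 9.78 and 9.34 TPM at 6 h and was listed at 0 in all libraries at 0 h. DMC1, the meiotic recombinase, had 30.9, 26.9 and 35.9 TPM at 6 h against 27.5, 27.0 and 21.3 TPM at 0 h, a log2FC of 0.31 that was not called.

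The label of a blocked course was checked with markers of meiotic stages. Summed over 8 genes of meiotic prophase, the T99N-nanobody strain had 58.8, 82.4, 109.9 and 134.4 TPM over the 4 times, against 277.8, 3556, 9002 and 5324 TPM in IME1; UME6. For 15 genes of the meiotic divisions and spore formation the sums were 351.9, 342.1, 1480 and 1210 TPM against 363.6, 422.4, 1081 and 40430 TPM. The 3 libraries at 4 h had 1155, 854.2 and 2430 TPM, and SPS100, a spore wall gene, supplied 989, 741 and 2316 TPM of that. SPS100 had 1298, 775 and 1159 TPM at 6 h against 263, 146 and 400 TPM at 0 h, and its log2FC at 4 h was 2.37 ± 0.46, or 1.72 without replicate 3 at 4 h. No marker of either list was at 0 in all libraries of a time. The middle meiotic list, which includes SPS100, had a median log2FC of 0.369, 0.66 and 0.791 at 2, 4 and 6 h. Its share of all TPM averaged 0.0716% at 0 h, 0.1977% at 4 h and 0.1731% at 6 h. The study reports that sporulation of this strain was strongly reduced but not absent, so the block was not complete.

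**Figure D5:**
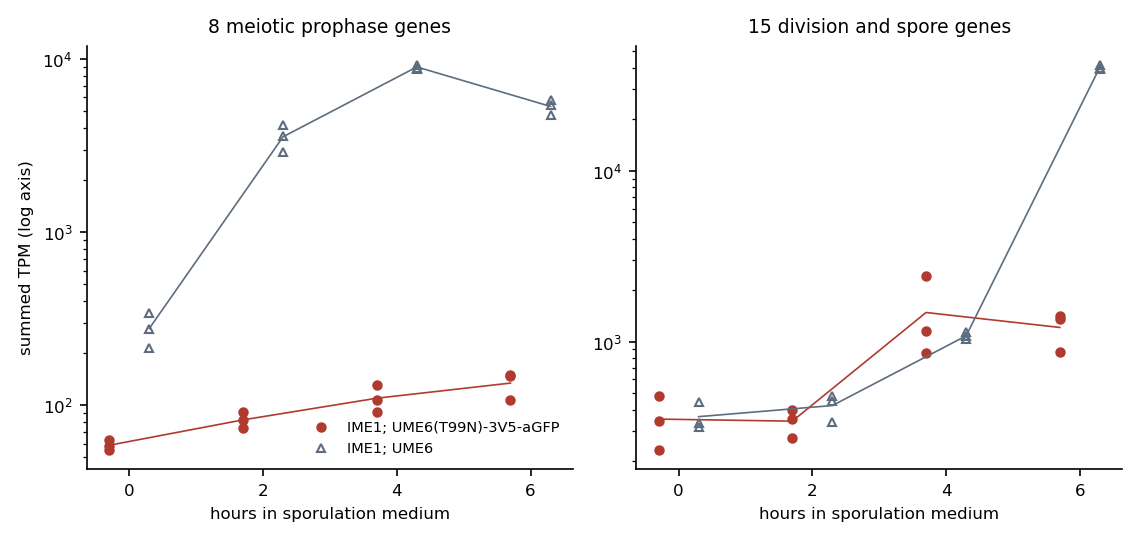
Summed TPM (log axis) of 8 meiotic prophase genes (left) and 15 genes of the divisions and spores (right) in each library by hours in sporulation medium, for the T99N-nanobody strain (filled circles) and IME1; UME6 (open triangles), with lines through the means. Prophase genes reach 9002 TPM at 4 h in IME1; UME6 and 109.9 TPM in the T99N-nanobody strain at that time.

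Markers of haploid cells, which MATa/alpha diploids should repress, were also followed. Of 18 tested genes, 11 rose and 1 fell at 2 h and 13 rose and 1 fell at 6 h. Among all genes, 32.3% rose and 28.1% fell at 2 h, and 31.7% and 29.9% at 6 h. The sum over 17 markers was 115.2, 113.5 and 116.7 TPM at 0 h, 212.7, 191.4 and 195.1 TPM at 2 h, 227.2, 205.9 and 244.9 TPM at 4 h, and 263.0, 238.1 and 254.7 TPM at 6 h, and it averaged 142.7, 417.9, 631.9 and 810.4 TPM in IME1; UME6. STE3, the receptor for a-factor, had 19.2, 11.3 and 19.3 TPM at 6 h against 3.44, 1.96 and 2.78 TPM at 0 h. AGA2, the binding subunit of a-agglutinin, had 18.2, 16.3 and 43.1 TPM at 4 h against 8.54, 7.82 and 3.98 TPM at 0 h, and its log2FC of 1.95 was 1.29 without replicate 3 at 4 h. The part of these genes, and of the meiotic markers, in the other results was not tested.

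The change of each gene was then compared with its change in IME1; UME6, as a difference of log2FC. The number of genes that differed grew with time: 17.7% of the genes tested at 2 h (421 higher, 7.62%, and 558 lower, 10.1%), 45.3% at 4 h (1263 higher, 22.9%, and 1242 lower, 22.5%) and 69.4% at 6 h. At 6 h, 2076 genes had a higher change in the T99N-nanobody strain (37.6%) and 1762 a lower one (31.9%). That majority turned with RLE factors (1721 higher, 2021 lower) and in DESeq2 (1665 and 1988), and with library totals it was 2457 and 1390. With library totals the split was 157 and 687 at 2 h and 797 and 1610 at 4 h. Library totals also shifted the median difference over all genes by -0.142, -0.204 and 0.276 at 2, 4 and 6 h, and RLE factors shifted it by -0.19 at 6 h, so differences of that size carry no direction.

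At 2 h, when 10.1% of all genes had a lower change in the T99N-nanobody strain, most early meiotic, replication and histone genes were among them. Of the early meiotic genes, 33 of 40 had a lower change than in IME1; UME6 (median -2.38), as did 33 of 52 replication genes (median -0.94) and all 9 histone genes (median -1.92). REC8, the meiotic cohesin, had 10.6, 7.39 and 8.84 TPM at 2 h in the T99N-nanobody strain and a mean of 483 TPM in IME1; UME6, a difference of -4.04. RNR1, the large subunit of ribonucleotide reductase, had 33.8, 31.9 and 34.5 TPM at 2 h against a mean of 602 TPM, a difference of -4.27. HTB2, a histone H2B gene, had 60.2, 39.4 and 56.6 TPM against a mean of 838 TPM. Of the 114 ribosome biogenesis genes, 2 had a higher and 1 a lower change at 2 h, with a median difference of 0.07. Among all genes, 7.62% had a higher and 10.1% a lower change.

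At 6 h the differences covered most groups. All but 1 of 45 middle meiotic genes had a lower change in the T99N-nanobody strain (median -7.09), as did 37 of 40 early meiotic genes (median -3.03), 18 of 23 cyclin and G1 genes (median -2.55) and 30 of 36 proteasome genes (median -0.79). Among all genes, 31.9% had a lower change. CLB1, a cyclin of the meiotic divisions, had 7.63, 9.04 and 10.2 TPM at 6 h against a mean of 673 TPM in IME1; UME6. CTS2, a putative chitinase, had 17.6, 15.0 and 18.4 TPM at 6 h against a mean of 1944 TPM, and the spore wall glucanase SPR1 averaged 16.6 TPM against 2169.7 TPM.

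In the other direction, 17 of 21 glycolytic genes had a higher change at 6 h (median 3.47), as did 99 of 103 cytosolic ribosomal protein genes (median 2.24), 21 of 29 general stress genes (median 2.01), 14 of 22 stationary phase genes (median 1.22) and 43 of 67 amino acid synthesis genes (median 1.01). Among all genes, 37.6% had a higher change. In shares of TPM, the glycolytic genes averaged 3.99% in the T99N-nanobody strain and 0.148% in IME1; UME6 at 6 h, and the cytosolic ribosomal protein genes 4.14% and 0.56%. TDH3 had 11014, 12765 and 13839 TPM at 6 h in the T99N-nanobody strain and a mean of 166 TPM in IME1; UME6, a difference in change of 4.97 ± 0.81 (edgeR adjusted p = 1.8e-07). PIR3, a wall protein, had 1497, 1145 and 1241 TPM against a mean of 33.1 TPM. PCK1 ran the other way, with 114, 130 and 175 TPM in the T99N-nanobody strain and a mean of 2059.9 TPM in IME1; UME6 at 6 h, after a mean of 283 TPM there at 2 h. IME1 had 2396, 2257 and 2435 TPM at 6 h against a mean of 924 TPM, a difference of 1.81 ± 0.20. TPM have the same total in every library, and the 15 division and spore genes alone averaged 40430 TPM in IME1; UME6 at 6 h; the part of that in the lower values of other genes there was not tested.

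The strains already differed at 0 h. In the T99N-nanobody strain 197 genes were higher (3.56%) and 291 lower (5.27%) than in IME1; UME6, together 8.83%. The total was 220 without replicate 1 of the T99N-nanobody strain, 289 without replicate 2 of IME1; UME6 and 251 without its replicate 3. The split was 91 higher and 407 lower with library totals, and 395 and 345 when only the 24 libraries of the 2 strains were fitted. Of 40 early meiotic genes 18 were lower and none higher (median -1.04), and of 103 cytosolic ribosomal protein genes 34 were higher and none lower (median 0.54). IME2 had 9.21, 12.4 and 8.31 TPM in the T99N-nanobody strain and a mean of 81.3 TPM in IME1; UME6, a log2FC of -2.85 ± 0.28 (edgeR adjusted p = 5.2e-12). URA3 had 21.4, 21.2 and 16.2 TPM against a mean of 146 TPM. In the study's strain list IME1; UME6 carries URA3 integrated at both ura3 loci, whereas the T99N-nanobody strain has the URA3 marker of its UME6 allele, which came from a plasmid with CaURA3.

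The second strain with this genotype label, in the activation domain experiment, shares no library with the course above and was fitted in its own table. At 6 h against 0 h, 29.8% of its genes were higher and 36.9% lower. Of 1751 genes higher in the T99N-nanobody strain at 6 h and tested in both, 718 were higher there too (41.0% of the T99N-nanobody calls and 43.6% of the calls in that experiment), and 420 were lower. Of 1653 genes lower, 791 were lower there (47.9% and 38.8%), and 375 were higher. Its starting levels differed widely. NSR1 averaged 2.01 TPM at 0 h there, and ACS1 had 23012, 2735 and 20096 TPM in its 3 libraries at 0 h, so these were not alike among themselves. At 6 h there, PCK1 averaged 341 ± 114 TPM, DAL80 191 ± 57.5 TPM and IME2 43.7 ± 33.3 TPM (SD, n = 3 each).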

How the data were processed

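RNA of yeast cultures was selected for poly(A) and made into directional libraries by the authors, who deposited estimated counts per gene model from kallisto together with TPM, both with SK1 gene models. The labels also name HISAT2, SAMtools and StringTie, and versions and the strand setting of kallisto are not given in the sources used here, so overlapping and antisense genes are uncertain. Tables of 2 depletion experiments were not used here. No column of another sample was in the tables used.

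The deposited estimated counts, of which 95.2 to 96.32% were whole in the 12 libraries of the T99N-nanobody strain, were rounded and fitted in R 4.3.3 with edgeR 4.0.16 (TMM factors, filterByExpr, quasi-likelihood test, Benjamini-Hochberg adjusted p below 0.05). The fit held 94 of 96 rescue libraries with 1 mean for each strain and time, and the scripts were tested on simulated data. The activation domain table (48 libraries) was fitted by itself. Deposited TPM were used for levels, and shares of TPM were tested by exact permutation (scipy 1.17.1). Gene names were matched to RefSeq R64, and sequences were taken from R64 and the study's oligonucleotide list. Promoter motifs were not searched.

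The genes described were drawn from the following sets, and not every member of a set is described. The first set held the 10 largest rises and the 10 largest falls at each time. These were called genes with a symbol, a mean log2 CPM of 4 or more and TPM without overlap. The second held, in each of the 23 lists, the 3 with the highest mean TPM and the 2 with the largest change at 6 h. The others were all regulators of meiotic entry, and the 5 largest in each direction for each difference from IME1; UME6. The course, lists and rule were chosen with earlier results of these data known. Alternatives were RLE factors, library totals, no filter, DESeq2 1.42.0, other sets of libraries, a replicate block, each library left out, and pseudocounts of 0.5 and 1 on TPM.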

Additional observations from a re-analysis of the deposited data

Results flagged for a closer look

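The change after transfer to sporulation medium differed between the T99N-nanobody strain and IME1; UME6 for 979 genes at 2 h, 2505 at 4 h and 3838 at 6 h, by edgeR's test of the difference itself at an adjusted p below 0.05. The values that follow are differences of log2FC, T99N-nanobody strain minus IME1; UME6, for the 5 genes furthest out in each direction.

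At 2 h the difference was 2.71 for YRO2, 2.52 for the FLO9 model SK1_01T00840.1, 1.77 for SSU1, 1.76 for ADE17 and 1.6 for NRS1. On the negative side it was -4.68 for HTB2, -4.27 for RNR1, -4.04 for REC8, -4.0 for DMC1 and -3.85 for SLZ1.

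At 4 h the difference was 3.73 for PIR3, 3.67 for NRS1, 3.33 for PDC6, 3.33 for PGI1 and 3.18 for HSP150. It was -4.62 for REC8, -4.47 for SPO22, -4.46 for HTB2, -4.19 for DMC1 and -3.73 for ZIP1.

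At 6 h the difference was 5.54 for PIR3, 5.23 for ENO2, 5.2 for TDH1, 5.06 for ENO1 and 5.04 for CDC19, of which the last 4 encode glycolytic enzymes. It was -7.45 for CTS2, -7.33 for CWP1, -7.09 for SPR1, -7.0 for CLB1 and -6.75 for SGA1. ENO1 and ENO2 are close in sequence, as is TDH1 to its paralogues.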

How the results depend on the processing

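The counts of genes called at 2, 4 and 6 h against 0 h, over all times and in the change at 6 h against IME1; UME6 stayed within 1.5 times under every alternative run. Leaving out single libraries gave 3033 to 3106 genes at 2 h, 3106 to 3175 at 4 h and 3115 to 3224 at 6 h. Smaller counts moved, and the cause was not tested unless fewer samples were fitted. At 4 h against 2 h, all 96 libraries gave 771 genes (355 higher, 416 lower), library totals gave 365 lower, and leaving out single libraries gave 649 to 1077 (313 to 491 higher, 336 to 586 lower). At 6 h against 4 h, library totals gave 171 (86 higher), the strain's own 12 libraries 419 (238 lower), all 96 libraries 93 (46 higher, 47 lower), and single libraries left out 78 to 286 (38 to 152 higher, 35 to 134 lower). For the difference from IME1; UME6 in the change, all 96 libraries gave 500 at 2 h (195 higher, 305 lower), and library totals gave 157 higher at 2 h and 797 higher at 4 h. For the difference at 0 h, the 24 libraries of both strains gave 740 (395 higher), all 96 libraries 246 (89 higher, 157 lower), library totals 91 higher, and single libraries left out 220 to 541 (71 to 207 higher, 149 to 334 lower).

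Of 3968 values for 274 gene results under these alternatives, 3917 kept their side of the threshold, 42 lost the call and 9 gained it. None reversed among those called in the main fit or the alternative, and a change of sign between uncalled values was not counted. Of 138 list medians under another scaling, 17 moved by more than the spread between libraries, and the peroxisome list at 2 h reversed by more than that, to -0.028 with library totals. A pseudocount reversed none of 588 log2 ratios of TPM. Leaving out the shallowest library of the table, chosen after seeing the data, moved no count of calls by over 1.5 times.

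Replicate numbers do not mark shared cultures in the labels, and they were not taken as pairs. The rule for pairing asked that every correlation of same-numbered libraries be above 0.1. Failing it does not exclude that such libraries shared a culture. In the T99N-nanobody strain 18 correlations ran from -0.191 to 0.342, 10 were above 0.1 and 10 were the best with their own number. In IME1; UME6 they ran from -0.178 to 0.358, with 5 above 0.1 and 9 best. In the strain of the activation domain experiment they ran from -0.005 to 0.767, with 15 above 0.1 and 14 best. With the number as a replicate block, 423 genes were called at 6 h against 4 h (220 higher, 203 lower) and 317 were higher at 0 h than in IME1; UME6. Other counts stayed within 1.5 times.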
